A study of Homo sapiens with 8 samples.

Results

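NF-kappaB is a family of dimeric transcription factors that inhibitor proteins hold in the cytoplasm until a signal such as tumour necrosis factor or interleukin-1 frees them. Described here are 10 genes known as NF-kappaB targets, chosen by a fixed list of probe-set IDs, and all 10 were found among the 19002 genes of the array table. They are the chemokines CXCL8 (ENSG00000169429_at), CXCL1 (ENSG00000163739_at), CXCL2 (ENSG00000081041_at), CXCL3 (ENSG00000163734_at) and CCL20 (ENSG00000115009_at), the inhibitors NFKBIA (ENSG00000100906_at) and TNFAIP3 (ENSG00000118503_at), the adhesion receptor ICAM1 (ENSG00000090339_at), and the subunits NFKB2 (ENSG00000077150_at) and RELB (ENSG00000104856_at). Transcript levels were measured on 8 Affymetrix arrays in HepG2, an established human cell line from a hepatocellular carcinoma. Of 4 groups of 2 arrays, the first held cells exposed for 24 h to benzo[a]pyrene (BaP), the next cells exposed for 24 h to the solvent dimethyl sulfoxide (DMSO), and the other two their 12 h counterparts, BaP and then DMSO. Exposure began at 80% confluence, DMSO was at 0.5%, and a BaP dose was not found in the labels. BaP is a combustion product that binds the aryl hydrocarbon receptor and is oxidised by cells to metabolites that bind DNA. The sample titles speak of biological replicates, but no label says that these were separate cultures, so p-values measure only the spread between the arrays.

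In liver cells NF-kappaB is known for the acute inflammatory response and for protection from death signals. NFKBIA encodes the inhibitor IkappaB-alpha, and TNFAIP3 encodes A20, an enzyme that edits ubiquitin chains on signalling proteins; both are switched on by NF-kappaB and feed back on it. CXCL8, CXCL1, CXCL2 and CXCL3 are ligands of the neutrophil receptor CXCR2, and CCL20 is the ligand of CCR6 on lymphocytes and dendritic cells. NFKB2 and RELB encode the partners of the non-canonical dimer.

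The promoter stretches below are shown because NF-kappaB binds a short motif with runs of G and C at its ends, and they let the genes that moved be set beside a pair that lay at the level of control probes. RefSeq promoter windows (GRCh38.p14, 250 bases before to 50 after each start) were given for 9 of the 10 genes; RELB was not among them. Each stretch is read 5′ to 3′ on the strand of its gene, and capitals mark matches to the 10-base kappaB consensus or to GGAATTTCC, on either strand. Matches to these patterns overlap each other in part. CXCL8 and CXCL3 also hold GGAATTTCC and lay above the control probes on all 8 arrays, but their stretches are not shown. The stretches lie at chr6:137867172-137867233 (TNFAIP3, plus strand), chr14:35404801-35404850 (NFKBIA, minus), chr2:227813743-227813792 (CCL20, plus), chr19:10270914-10270962 (ICAM1, plus), chr10:102394451-102394529 (NFKB2, plus), chr4:73869294-73869344 (CXCL1, plus) and chr4:74099243-74099293 (CXCL2, minus).
TNFAIP3: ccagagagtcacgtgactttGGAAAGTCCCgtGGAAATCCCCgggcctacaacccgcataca
NFKBIA: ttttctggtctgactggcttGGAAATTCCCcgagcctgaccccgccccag
CCL20: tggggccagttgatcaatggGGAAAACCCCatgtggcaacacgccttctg
ICAM1: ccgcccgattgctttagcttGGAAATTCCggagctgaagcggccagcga
NFKB2: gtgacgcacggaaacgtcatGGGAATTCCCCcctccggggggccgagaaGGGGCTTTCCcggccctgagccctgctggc
CXCL1: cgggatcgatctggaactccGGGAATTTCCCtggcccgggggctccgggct
CXCL2: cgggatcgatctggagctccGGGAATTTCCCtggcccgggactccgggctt

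All 9 genes with a window held a match to either pattern, against 11.5% of the 35116 RefSeq promoter windows. The genes were chosen as NF-kappaB targets, so this share describes the choice. GGAATTTCC itself was found in 6 of the 9 genes, the 4 CXC chemokines, NFKBIA and ICAM1, against 0.461% of all windows. GCGTG, the core letters of the element bound by the aryl hydrocarbon receptor, was found on either strand in 3 of the 9 (CCL20, ICAM1 and NFKB2), against 36.5% of all windows. NFKB2 has 3 windows for different starts, and the one at its second start is shown. A gene was counted if any of its windows held a match, while the shares of all windows count single windows. A match is a description of letters and not evidence of binding.

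The deposited values are log2 expression after RMA, a normalization that gives all arrays the same distribution of probe intensities. Array medians lay between 6.64 and 6.68, and the median absolute gap between the replicates of a group ranged from 0.0773 to 0.0964. The second DMSO array at 24 h stood apart in its 18S ribosomal RNA probe sets, with a mean of 11.3 where the other arrays lay between 12.6 and 13.1. The array also carries probe sets for a bacterial tryptophan synthesis gene, taken here as a control that was not added to the samples, and these reached 4.35. No table used here paired the other IDs with gene symbols, so the rest of the pathway and the markers of liver and other cells were not examined.

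The transcript of the inhibitor TNFAIP3 was lower in BaP than in DMSO at 12 h (0.745-fold, though 0.03 on the log2 scale after scaling to the poly-A controls), the only one of the 10 genes that passed against DMSO at that time, where 8.27% of all genes passed. Across both times, TNFAIP3 was lower and NFKB2 1.19-fold higher in BaP. No chemokine passed the test against DMSO at either time when the deposited values of all 8 arrays were fitted without pairing. With a replicate block CXCL8 and CCL20 passed at 12 h, as given in the last section. After poly-A scaling CXCL8 (0.87), CXCL3 (0.73) and CCL20 (0.96) passed at 12 h (limma adjusted p = 0.0119, 0.0354 and 0.00408), where the median of all genes was 0.47. Larger changes came with time: CCL20, TNFAIP3 and ICAM1 rose between 12 h and 24 h in BaP and in DMSO alike. The ICAM1 rise in BaP did not pass after poly-A scaling (limma adjusted p = 0.294). Each rise kept its direction with 1 array left out, but not all of the calls held, as given below. Differences were tested with limma across all 19002 genes with Benjamini-Hochberg adjustment, and a gene was called at an adjusted p under 0.05.

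**Figure D1:**
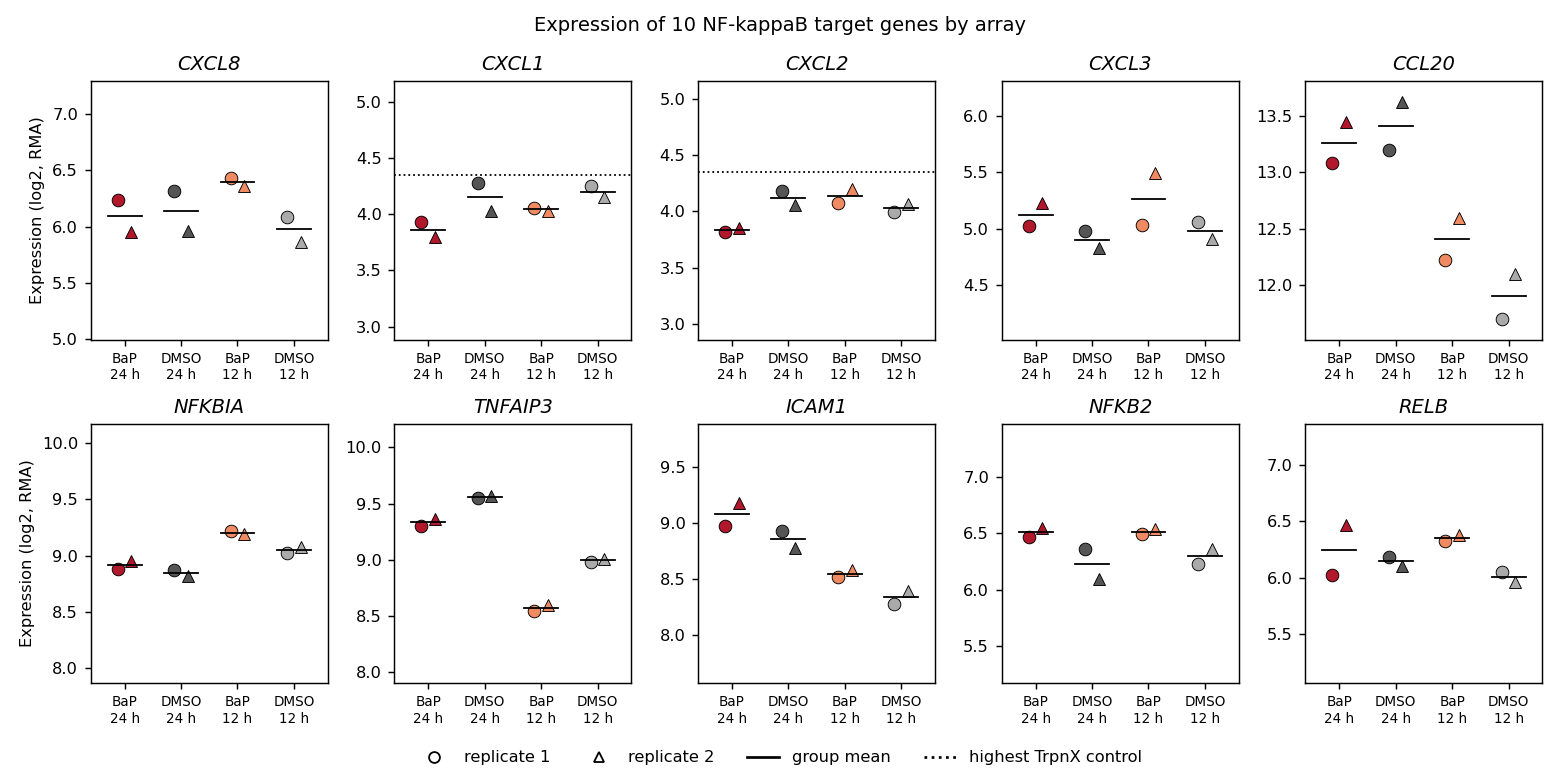
Expression (log2, RMA) of the 10 genes on each of the 8 arrays; circles are replicate 1, triangles replicate 2, bars the group means, and each panel spans the same number of log2 units. TNFAIP3 separates all 4 groups, CCL20, TNFAIP3 and ICAM1 are higher at 24 h than at 12 h in both treatments, and CXCL1 and CXCL2 lie below the dotted line at 4.35, the highest value of the tryptophan control probe sets.

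TNFAIP3 read 9.30 and 9.36 in BaP at 24 h, against 9.55 and 9.57 in DMSO at 24 h, and 8.54 and 8.60 in BaP at 12 h, against 8.98 and 9.01 in DMSO at 12 h. The BaP arrays lay below the DMSO arrays at each time, and the 12 h arrays lay below the 24 h arrays. At 12 h the log2 difference was -0.42 ± 0.07 (SE, n = 2 each, limma adjusted p = 0.00552), 0.745-fold with a 95% interval of 0.672 to 0.826. It was -0.40 and did not pass without BaP 12 h replicate 1 (adjusted p = 0.0508 in limma), and passed without any other single array. Scaling the arrays to their poly-A controls raised the median of all genes at 12 h to 0.47 and turned the TNFAIP3 difference to 0.03 (limma adjusted p = 0.919). Relative to the median of all genes the difference was -0.45 before and after. The scaling shifts all genes of an array by 1 constant, so it cannot change a value relative to that median, and the equality is no test.

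At 24 h the TNFAIP3 difference was -0.23 ± 0.07 (SE, 0.856-fold, 95% interval 0.771 to 0.949) and did not pass in limma (adjusted p = 0.0887). The effect at 24 h minus that at 12 h was 0.20, with a 95% interval of -0.01 to 0.41 (limma adjusted p = 0.401), so no difference between the times was shown. Poly-A scaling moved this value to -0.37 and the median of all genes to -0.58. Relative to that median TNFAIP3 was at 0.21, which such scaling cannot change. Over both times, with time as a covariate, TNFAIP3 was lower in BaP by a log2 difference of -0.32 ± 0.06 (SE, limma adjusted p = 0.00736). This call held without any single array, with adjusted p-values of at most 0.0290 over the alternatives other than poly-A scaling, where the difference was -0.16 (-0.34 relative to the median of all genes) and did not pass (adjusted p = 0.705 in limma).

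The other inhibitor, NFKBIA, did not pass against DMSO at either time. It read 8.88 and 8.96 in BaP at 24 h, against 8.87 and 8.82 in DMSO at 24 h, and 9.22 and 9.19 in BaP at 12 h, against 9.02 and 9.08 in DMSO at 12 h. The BaP arrays lay above the DMSO arrays at each time, at 24 h by less than the gap between replicates. The log2 difference was 0.07 at 24 h (95% interval -0.08 to 0.22, adjusted p = 0.632) and 0.15 at 12 h (0.00 to 0.31, adjusted p = 0.219), and neither passed in limma. At 24 h it was -0.05 after poly-A scaling.

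The subunit genes NFKB2 and RELB had higher means in BaP at both times, RELB at 24 h not after poly-A scaling. NFKB2 read 6.47 and 6.55 in BaP at 24 h, against 6.36 and 6.09 in DMSO at 24 h, and 6.49 and 6.54 in BaP at 12 h, against 6.23 and 6.36 in DMSO at 12 h. All 4 BaP arrays lay above all 4 DMSO arrays. The differences, 0.28 ± 0.10 at 24 h and 0.22 ± 0.10 at 12 h (SE), did not pass in limma (adjusted p = 0.142 and 0.231), though that at 24 h was 0.42 and passed without DMSO 24 h replicate 1 (0.0471). Over both times NFKB2 was higher in BaP by 0.25 ± 0.07 (SE, 1.19-fold, 95% interval 1.07 to 1.32, limma adjusted p = 0.0478). The call lay close to the threshold: it was lost without any single array other than DMSO 24 h replicate 1 (adjusted p from 0.0593 to 0.129 in limma) and after cyclic loess (0.0538), and poly-A scaling gave 0.42 without passing (0.700).

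RELB read 6.02 and 6.47 in BaP at 24 h, against 6.18 and 6.11 in DMSO at 24 h, and 6.32 and 6.38 in BaP at 12 h, against 6.05 and 5.96 in DMSO at 12 h. The groups were apart at 12 h and overlapped at 24 h, where the BaP arrays differed from each other by 0.45, a gap exceeded by 1.16% of genes. Its log2 difference was 0.10 ± 0.13 at 24 h and 0.34 ± 0.13 at 12 h (SE, limma adjusted p = 0.717 and 0.152), and -0.01 at 24 h after poly-A scaling. At 12 h it passed without either of the BaP 24 h arrays (adjusted p = 0.0319 in limma, the same 0.34), and over both times it was 0.34 and passed without BaP 24 h replicate 1 (0.0107).

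Among the chemokines, CCL20 had the widest range over the arrays, 1.93 log2 units. CCL20 read 13.08 and 13.45 in BaP at 24 h, against 13.20 and 13.63 in DMSO at 24 h, and 12.22 and 12.59 in BaP at 12 h, against 11.70 and 12.09 in DMSO at 12 h. BaP arrays lay above DMSO arrays at 12 h, while the groups overlapped at 24 h. The log2 difference was -0.15 ± 0.20 at 24 h and 0.51 ± 0.20 at 12 h (SE, limma adjusted p = 0.740 and 0.170). Without the DMSO 24 h array that stood apart in its 18S signal, the value at 24 h was 0.067. The effect at 24 h minus that at 12 h was -0.66 with a 95% interval of -1.30 to -0.02, and it did not pass after adjustment (limma adjusted p = 0.354). The second array of each group read 0.37 to 0.43 above the first, a gap that at most 2.54% of genes exceeded in any group. With a replicate block CCL20 passed at 12 h and in the difference between times (limma adjusted p = 0.00325 and 0.0281), though no label says that the arrays are paired.

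CXCL8, the neutrophil chemoattractant interleukin-8, was likewise higher in all BaP arrays at 12 h alone. It read 6.23 and 5.95 in BaP at 24 h, against 6.32 and 5.96 in DMSO at 24 h, and 6.43 and 6.36 in BaP at 12 h, against 6.09 and 5.86 in DMSO at 12 h. The groups were apart at 12 h and overlapped at 24 h. The difference was -0.04 ± 0.14 at 24 h, with a 95% interval of -0.36 to 0.27, and 0.42 ± 0.14 at 12 h, with an interval of 0.11 to 0.73 (SE, limma adjusted p = 0.903 and 0.112). The effect at 24 h minus that at 12 h was -0.46 (95% interval -0.91 to -0.02, adjusted p = 0.351 in limma). Fitted on the 12 h arrays alone, the difference at 12 h passed (limma adjusted p = 0.0490).

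CXCL3 read 5.03 and 5.23 in BaP at 24 h, against 4.98 and 4.83 in DMSO at 24 h, and 5.03 and 5.50 in BaP at 12 h, against 5.06 and 4.90 in DMSO at 12 h. Its means were higher in BaP by 0.22 at 24 h and by 0.28 at 12 h, without passing in limma (adjusted p = 0.443 and 0.299). Without 1 array these values ran from 0.12 to 0.32 at 24 h and from 0.052 to 0.52 at 12 h, the lowest of each without replicate 2 and the highest without replicate 1 of the BaP arrays of that time. The gap of 0.47 between the BaP arrays at 12 h was exceeded by 0.837% of genes.

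CXCL1 and CXCL2, whose promoters are among those shown above with GGAATTTCC, lay below the highest tryptophan control on all 8 arrays. CXCL1 ranged from 3.79 to 4.28 and CXCL2 from 3.82 to 4.20, so no fold is given for either. Neither passed against DMSO at either time in limma (adjusted p from 0.0718 to 0.476), and no direction is read from either. CXCL1, CXCL2 and CXCL3 are close paralogues, and whether their probe sets share signal was not tested.

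ICAM1, the surface receptor that leukocyte integrins bind, read 8.98 and 9.18 in BaP at 24 h, against 8.93 and 8.78 in DMSO at 24 h, and 8.52 and 8.58 in BaP at 12 h, against 8.28 and 8.40 in DMSO at 12 h. The BaP arrays lay above the DMSO arrays at both times. The difference was 0.22 ± 0.09 at 24 h and 0.21 ± 0.09 at 12 h (SE, limma adjusted p = 0.214 and 0.222), and over both times 0.22 ± 0.06 (SE, 1.16-fold, 95% interval 1.05 to 1.28). That value did not pass in limma (adjusted p = 0.0640), but did under the wider of the filters on dim genes (0.0487).

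**Figure D2:**
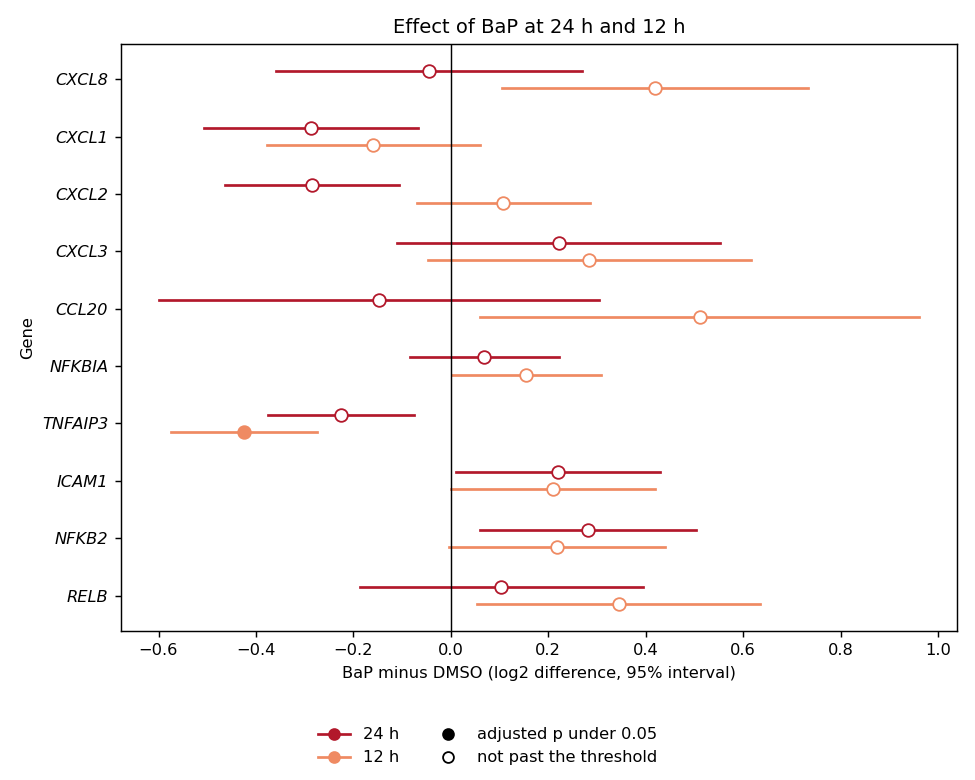
Log2 difference of BaP minus DMSO for each gene at 24 h (dark red) and 12 h (orange), with 95% intervals from limma; filled points have an adjusted p under 0.05. TNFAIP3 at 12 h is the only filled point, at -0.42 (0.03 after poly-A scaling, which lifts the median of all genes to 0.47), and the intervals of CXCL8 and CCL20 are wider than that of TNFAIP3.

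Counted together, 0 of the 10 genes passed at 24 h, against 6.07% of all genes, and 1 passed at 12 h, against 8.27% (4.87% in its direction, lower). At an unadjusted p under 0.05 in limma there were 5 at 24 h and 6 at 12 h, where 21.1% and 22.3% of all genes lay under it. In the authors' deposited table, the adjusted p passed for none of the 10 genes at 24 h and for TNFAIP3 at 12 h. The median log2 difference over the 10 genes was 0.01 at 24 h, with 0.01 over all genes, and 0.21 at 12 h, with 0.02 over all genes. Arrays of the groups did not overlap for 7 genes at 24 h and for 9 at 12 h, against 48.9% and 54.1% of all genes. For 5 genes the groups were apart in the same direction at both times, against 22.3% of all genes: ICAM1, NFKB2 and NFKBIA were higher in BaP, TNFAIP3 was lower, and the other was CXCL1, at the level of the control probes. Over both times 2 of the 10 passed, against 9.91% of all genes, with 1 higher (4.44%) and 1 lower (5.48%).

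The difference between the effects at 24 h and at 12 h passed for 0 of the 10 genes in limma, against 0.642% of all genes, and 3 (CXCL2, CCL20 and CXCL8) had an unadjusted p under 0.05, against 13.6%. CXCL2 had the lowest adjusted p, 0.167. For 7 genes the effect had a lower value at 24 h than at 12 h, with a median over the 10 of -0.11 and of -0.01 over all genes.

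Time itself was then examined within each treatment. Between 12 h and 24 h in BaP, 5 of the 10 genes passed, against 15.3% of all genes, with CCL20, TNFAIP3 and ICAM1 higher (7.21% of all genes) and NFKBIA lower (8.14%) at 24 h. The other is CXCL2, whose values all lay below the highest tryptophan control. In DMSO 3 passed, against 6.85%, and these were CCL20, TNFAIP3 and ICAM1, all higher at 24 h (3.13% of all genes). The arrays of the times did not overlap for 7 genes in BaP and for 5 in DMSO, against 55.4% and 49.9% of all genes. The BaP and DMSO comparisons share no array, but they share the estimate of the spread.

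CCL20 averaged 13.27 ± 0.26 in BaP at 24 h and 12.41 ± 0.26 in BaP at 12 h (SD, n = 2 each), 1.81-fold with a 95% interval of 1.33 to 2.48 (limma adjusted p = 0.0201). In DMSO it averaged 13.41 ± 0.30 at 24 h and 11.90 ± 0.28 at 12 h (SD, n = 2 each), 2.86-fold with an interval of 2.09 to 3.91 (limma adjusted p = 0.00695). Without the second DMSO array at 24 h, the one that stood apart in its 18S signal, the DMSO change was 1.30 on the log2 scale and did not pass in limma (adjusted p = 0.0553). The BaP change was 0.67 and did not pass without BaP 12 h replicate 1 (adjusted p = 0.126), nor without BaP 24 h replicate 2 (adjusted p = 0.120 in limma). The order of the group means was DMSO 24 h, BaP 24 h, BaP 12 h and DMSO 12 h, and the arrays of the first pair overlapped, while those of BaP 12 h and DMSO 12 h did not overlap but did not pass the test.

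TNFAIP3 rose with time by 0.76 ± 0.07 in BaP (SE, 1.69-fold, limma adjusted p = 2.61e-04) and by 0.56 ± 0.07 in DMSO (SE, 1.48-fold, adjusted p = 0.00491). The BaP change held without any single array, while the DMSO change missed the threshold without DMSO 12 h replicate 2 (limma adjusted p = 0.0527). ICAM1 rose by 0.53 ± 0.09 in BaP (SE, 1.44-fold, adjusted p = 0.00595) and by 0.52 ± 0.09 in DMSO (SE, 1.43-fold, limma adjusted p = 0.0166). With 1 array left out, the ICAM1 rise in BaP ran from 0.43 to 0.63 and kept its call. The ICAM1 rise in DMSO then ran from 0.44 to 0.59. It kept its direction, but missed the threshold whenever 1 of the 4 DMSO arrays was left out. After poly-A scaling ICAM1 was at 0.61 in BaP and did not pass (adjusted p = 0.294 in limma), and at 1.17 in DMSO, where it passed (6.41e-05). TNFAIP3 was then at 0.84 in BaP and 1.21 in DMSO, and passed in both (limma adjusted p = 0.0285 and 3.19e-05). The scaling put the median of all genes at 0.05 in BaP and 0.63 in DMSO.

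NFKBIA fell by 0.29 ± 0.07 with time in BaP (SE, 0.820-fold, 95% interval 0.738 to 0.912, limma adjusted p = 0.0215). In DMSO its difference was -0.20 ± 0.07 (SE, adjusted p = 0.117 in limma) and 0.45 after poly-A scaling, where the median of all genes was 0.63, and the 24 h arrays lay below the 12 h arrays in both treatments. CXCL2 had an adjusted p of 0.0312 in limma for time in BaP, but all its values lay below the highest tryptophan control, so no direction is read from it. Each of these calls was lost without any 1 of the 4 BaP arrays (adjusted p from 0.0530 to 0.187 in limma), and neither passed after poly-A scaling (-0.21 for NFKBIA). NFKB2 had a difference of -0.01 in BaP, with a 95% interval of -0.23 to 0.22, and -0.07 in DMSO, with an interval of -0.29 to 0.15 (0.07 in BaP and 0.58 in DMSO after poly-A scaling).

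**Figure D3:**
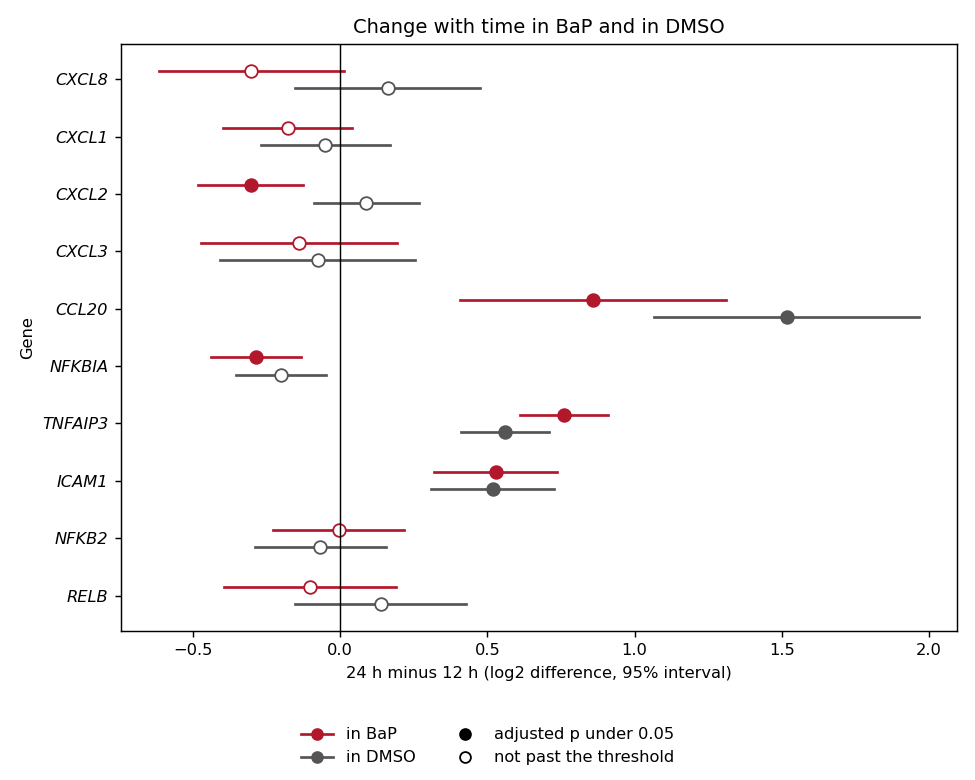
Log2 difference of 24 h minus 12 h for each gene in BaP (dark red) and in DMSO (grey), with 95% intervals from limma; filled points have an adjusted p under 0.05. CCL20, TNFAIP3 and ICAM1 have filled points to the right of 0 in both treatments, from 0.52 to 1.52, and NFKBIA has a filled point to the left of 0 in BaP, at -0.29. The filled point of CXCL2 rests on values below the highest tryptophan control.

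**Figure D4:**
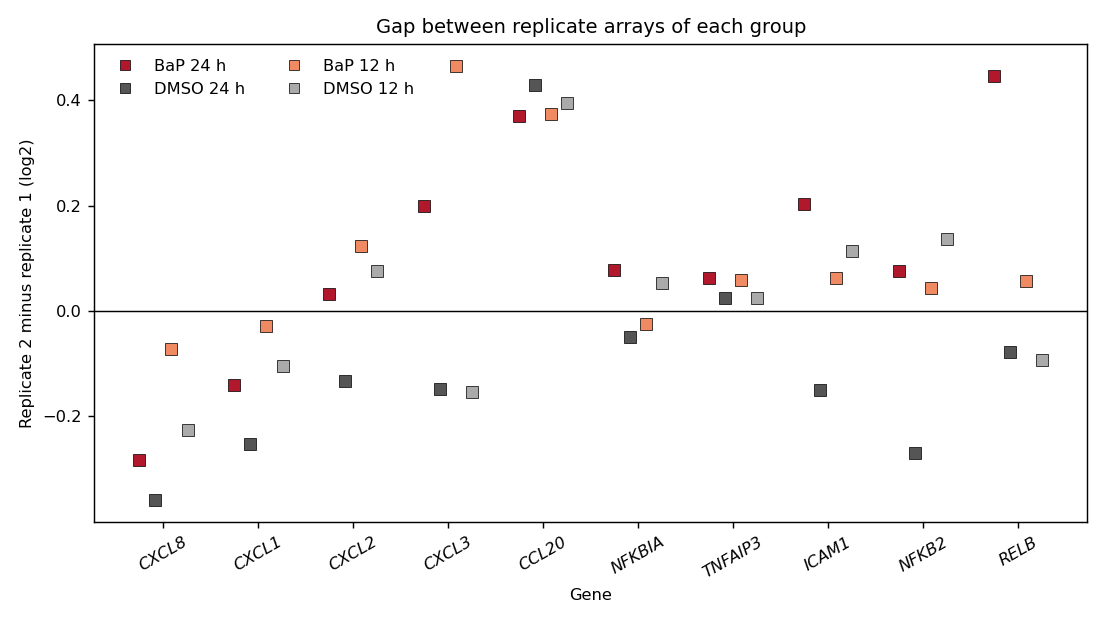
Log2 value of replicate 2 minus replicate 1 for each gene in each of the 4 groups. CCL20 sits between 0.37 and 0.43 in every group, TNFAIP3 between 0.02 and 0.06, and single wide gaps appear for CXCL3 in BaP at 12 h (0.47) and RELB in BaP at 24 h (0.45).

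The gap between replicates had 1 sign in all 4 groups for 4 of the 10 genes, against 17.1% of all genes. CCL20 and TNFAIP3 were higher in replicate 2, and CXCL8 and CXCL1 were higher in replicate 1. The gaps of TNFAIP3 were at most 0.06, and between 60.4% and 86.2% of genes had wider ones in the same group. For CXCL8 the gap ranged from -0.36 to -0.07.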

How the data were processed

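Expression was deposited as log2 values; the submitters' processing notes name RMA, which removes a shift common to all transcripts, limma and R 2.12.2. Biotinylated cRNA came from 250 ng total RNA, per the labels' protocols. Genome build and probe assignment: not given in the sources used here. Log2 differences and limma p-values also stand in the authors' deposited table, per the file headers. Of 19064 probe sets, 19002 carry an Ensembl ID and 62 are controls. Arrays have no count depth, and 2 per group limit the precision.

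All 8 arrays entered a model with 1 mean for each group (limma 3.58.1 in R 4.3.3, 4 residual degrees of freedom); a model of time and compound gave the effect over both times (5). Standard errors and intervals are moderated. The fit was tested on simulated data. No filter was used. Alternatives were cyclic loess, median centring, a replicate block, leaving out single arrays, fitting 1 comparison alone, 2 dim-gene filters, a trended prior, a robust prior, array weights, an adjusted p under 0.01, poly-A scaling (counts of called genes and medians), the second copy of the values and the deposited table. The members and gene lists were chosen with earlier results of these data known. The naming rule took all 10 members and the passing genes of lists given by symbol. The files do not pair IDs with symbols, so those lists were not used and member symbols come from the list itself. Promoters are RefSeq's.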

Additional observations from a re-analysis of the deposited data

How the results depend on the processing

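Under the alternatives other than poly-A scaling and the stricter threshold, 1056 values of single genes were recomputed. Of these, 992 kept their direction and side of the threshold, 26 lost a call and 13 gained one. Another 25 changed sign, none of them past the threshold in limma. Most of the 1056 values had no call in the main fit, so the 992 does not measure how well the calls held. Column headers of the authors' deposited table carry the same pair of tags in every group, and no source says that a tag or replicate number marks a shared culture. The replicate gaps correlated across genes at 0.10 to 0.14 for 5 of 6 group pairs, and at -0.05 for the remaining pair, BaP 24 h with DMSO 24 h. A pairing was taken as shown only with every pair over 0.1, so the arrays were not paired, and a shared culture is not excluded. With a replicate block 3 of the 10 genes passed at 12 h (CXCL8, adjusted p = 0.0216, CCL20, 0.00325, and TNFAIP3, limma) and 1 in the difference between times (CCL20, adjusted p = 0.0281 in limma). The block also brought CXCL8 with time in BaP (0.0464) and CXCL1 over both times (0.0479) past the threshold, and NFKB2 over both times lost its call (adjusted p = 0.0649 in limma).

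With 1 array left out, the genes called among the 10 changed in some fits of every comparison other than the difference between times. Without any 1 of the 12 h arrays, fewer of all genes were called at 12 h as well. A lost call is therefore not particular to these genes. These fits have fewer arrays, and the lone array is assumed to vary like the other groups. On the arrays of the comparison alone, CXCL8 and RELB passed at 12 h beside TNFAIP3. A trended prior brought TNFAIP3 past the threshold at 24 h, and cyclic loess left TNFAIP3 as the only call over both times. An adjusted p under 0.01 kept TNFAIP3 at 12 h and over both times. That threshold also kept TNFAIP3 and ICAM1 with time in BaP, and CCL20 and TNFAIP3 with time in DMSO. Poly-A scaling gave 5 genes at 12 h, 2 with time in BaP, 9 with time in DMSO and 0 over both times in limma, where it called 2011, 345, 15767 and 192 of all genes. It moved the median of all genes to 0.47 at 12 h, 0.05 with time in BaP, 0.63 with time in DMSO and 0.18 over both times. The cause of these shifts was not tested. The 5 genes at 12 h were CXCL8, CXCL3, CCL20, NFKB2 and RELB, all higher in BaP. With time in DMSO 4 of the 10 genes changed sign under it and 3 of them passed, CXCL1 at 0.60, CXCL3 at 0.57 and NFKB2 at 0.58 (adjusted p = 0.0205, 0.0248 and 0.0232 in limma), each below the median of all genes. CXCL1 and CXCL2 drop out under both filters on dim genes. Without 1 array, sign changes of values that did not pass gave these log2 ranges. At 24 h CXCL8 ran from -0.22 to 0.14, CCL20 from -0.36 to 0.067 and RELB from -0.12 to 0.33. In the difference between times CXCL3 ran from -0.30 to 0.17, ICAM1 from -0.092 to 0.11 and NFKB2 from -0.072 to 0.20. With time in BaP CXCL3 ran from -0.37 to 0.093, RELB from -0.33 to 0.12 and NFKB2 from -0.043 to 0.033, and cyclic loess gave NFKB2 0.029. With time in DMSO CXCL8 ran from -0.018 to 0.34, CXCL1 from -0.18 to 0.075 and NFKB2 from -0.20 to 0.067.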
